A study of Mus musculus with 2 samples.

Results

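Expression of 10 genes was described in E16.5 mouse ureters: Adssl1, Sh3bgr, Sh3bgrl2, Dock8, Snx31, Osbpl3, Rnf144b, Bcl2l14, Homer2 and Prrt2. They were selected on their array ratios, which in an earlier pass over these data had the same sign on both arrays, and on lying outside the gene families classically used to describe the urothelium. All probes that carry these gene names were kept, which gave 19 probes of 39429 on the array and 10 genes of 29982 with a value. The ratios between the RNAs chose these genes and are therefore given as a description, without a test.

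The RNA came from pooled ureters of conditional mutants (Pparg-cKO; Pax2-cre/+;Pparg(fl/fl)) and of littermates labelled Pparg(fl/?), which carried no cre. Pax2-cre is active in the nephric duct and its derivatives, including the ureteric epithelium, and removes an exon region of Pparg, whereas the mesenchyme and smooth muscle of the ureter keep the gene. There were 2 dual-colour arrays, array 1 with pools of female embryos and array 2 with pools of male embryos, each with 1 mutant against 1 control pool and with exchanged dyes. Dye and sex changed together, so their parts in a difference between the arrays cannot be told apart, and 1 stage label per array reads E14.5 where titles and protocols read E16.5. No spot was saturated, 70.4 to 80.4% of spots per channel were well above background, and the number of arrays, 2, limited the precision of every value.

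The labels and the direction that the study describes disagree on which dye carried the mutant RNA. RNA A is the RNA in red (AlexaFluor647) on array 1 and in green (AlexaFluor555) on array 2, and RNA B is its partner. By the labels RNA A was the control, and by the direction of the study's text it was Pparg-cKO. By in situ hybridization, which uses no array dye, the study also reports Krt20 and Upk1a as lost or strongly lowered in mutant ureters at fetal stages. Both genes gave the dimmer signal in RNA A on both arrays, which goes with the direction of the study's text. Every ratio below is the log2 signal of RNA A minus that of RNA B, so that a negative value means a brighter signal in RNA B, and no genotype was assigned.

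The ureter is lined by a urothelium of basal, intermediate and superficial cells, and superficial cells carry plaques of uroplakins on their luminal face. PPARG is a ligand-dependent nuclear receptor that binds DNA with RXR partners, often at a direct repeat of the hexamer AGGTCA with 1 base between the repeats. The genes described here have their best known roles elsewhere, in purine metabolism, muscle, actin signalling, lipid transfer, ubiquitin transfer, cell death and synapses, with the exception of Snx31, a sorting nexin known to bind uroplakins in superficial cells.

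The probes are oligonucleotides of 60 bases, and the first 30 bases of a few are shown to tell apart genes read by 1 sequence, by overlapping sequences and by distant ones. The 2 probes of Sh3bgr share 55 bases, shifted by 5, and are close to a repeat of 1 measurement; capitals mark the shared part within the bases shown.
Sh3bgr, first probe: aggctTGGCTTTCAGAACAAAACACTTCCC
Sh3bgr, second probe: TGGCTTTCAGAACAAAACACTTCCCagaga
The 4 probes of Sh3bgrl2 lie apart on the gene, the second 17.1 kb, the third 21.3 kb and the fourth 22.6 kb downstream of the first, and share no such stretch.
Sh3bgrl2, probe 1: gaagcctgcgcagggcaaccctctgccacc
Sh3bgrl2, probe 2: ttttttgaatcgaaggaaagcaacacagtc
Sh3bgrl2, probe 3: ctagttggtgttaagcccgatccacgtaaa
Sh3bgrl2, probe 4: ttgtatttgtctctcaaggcattggtgaaa
Dock8 and Adssl1 were each read by a single probe, so their values rest on 1 sequence each.
Dock8: aaccattttccaatatatctgtgagaaaaa
Adssl1: tgtcacatggtatgtgttcagttggagcca
Apart from the Sh3bgr pair, no probe of the 10 genes shared 20 bases with any other probe on the array. The positions given below are those of the array's annotation (mm9).

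On either array, RNA B gave the brighter signal at all 19 probes. For each gene, the probe with the highest mean signal represented it. The mean log2 ratio of the 2 arrays ranged from -1.49 for Dock8 to -0.40 for Snx31, with a median of -0.73, which is 2.81-fold to 1.32-fold brighter in RNA B. Over all 21429 genes well above background in an RNA on both arrays, the median was 0.0067. After the study's methods, a gene passed a filter when both arrays showed it at least 1.5-fold brighter in the same RNA and that RNA reached a signal of 100 on each. Of the 10 genes, 9 passed on the side of RNA B, against 0.230% of all genes; since this contrast selected the genes, the count is a description. Snx31 did not pass. In the other direction 0.157% of all genes passed.

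**Figure D1:**
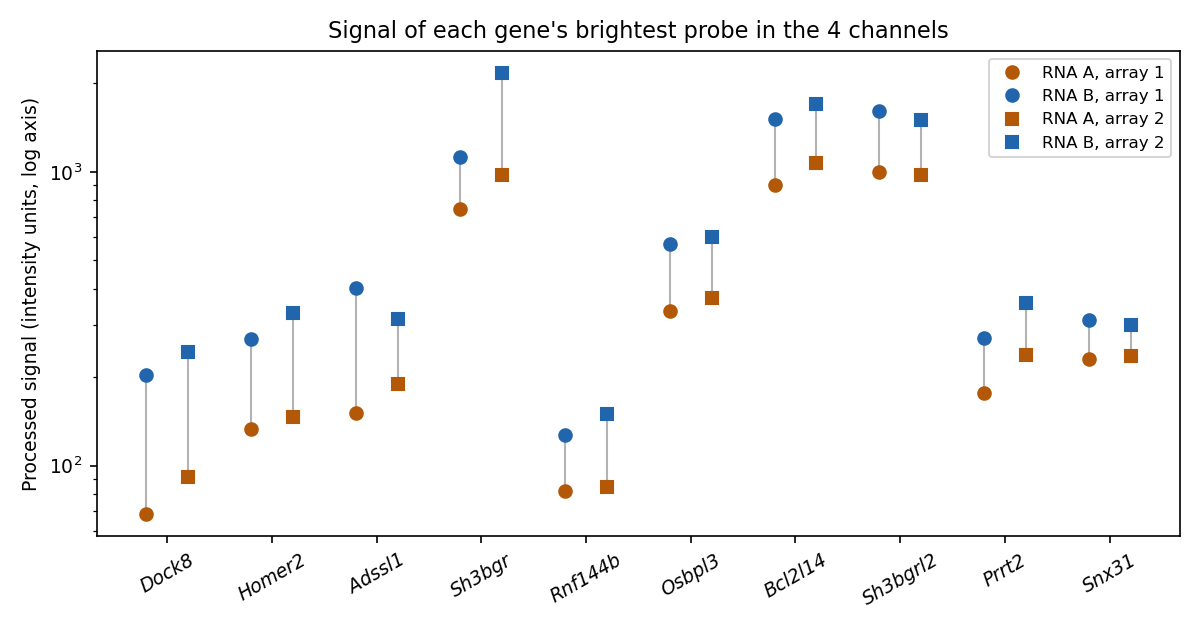
Processed signal of each gene's brightest probe (intensity units, log axis) in RNA A (orange) and RNA B (blue) on array 1 (circles) and array 2 (squares), with lines joining the RNAs of 1 array. RNA B lay above RNA A in every pair shown.

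Dock8, Homer2, Prrt2 and Osbpl3 encode proteins of signalling and membrane contact. Dock8, an exchange factor for the small GTPase CDC42 known best from leukocytes, was read at chr19:25275989-25276048 on the plus strand. RNA A gave a signal of 68.4 and RNA B one of 203 on array 1, and array 2 gave 91.8 for RNA A and 244 for RNA B. The channels of RNA B were thus more than 2-fold above those of RNA A on either array, and they did not overlap. The log2 ratios were -1.57 and -1.41, with a mean of -1.49 ± 0.110 (SD, n = 2 arrays). Dock8 had the lowest ratio of the 10 genes and ranked 35 of 21429 from the lowest.

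Homer2, a scaffold that links glutamate receptors and inositol trisphosphate receptors to Shank proteins, was read at chr7:88756199-88756258 on the minus strand where array 1 gave 133 for RNA A and 269 for RNA B, and array 2 gave 146 and 330. Both channels of RNA B lay above both of RNA A. The log2 ratio was -1.10 ± 0.111 (SD, n = 2 arrays). A second, dimmer probe gave 23.4 and 42.8 (array 1) and 25.0 and 67.2 (array 2), with log2 ratios of -0.87 and -1.43. This probe had the same direction but stayed below the signal of 100.

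Prrt2, a presynaptic membrane protein that binds SNAP25, was read at chr7:134161491-134161550 on the minus strand with 177 in RNA A against 271 in RNA B (array 1) and 238 against 357 (array 2). At 1.53-fold on array 1 and a log2 ratio of -0.59 on array 2, it lay just inside the filter. The log2 ratio was -0.60 ± 0.0197 (SD, n = 2 arrays), so that the arrays differed by less than for any other of the 10 genes. Its second probe, with signals between 7.87 and 12.6, was dim and gave -0.56 and -0.10, with single spots on both sides of 0 on array 2.

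Osbpl3 encodes an oxysterol-binding-protein relative that acts at contacts of the endoplasmic reticulum with the plasma membrane and binds VAPA and R-Ras. At chr6:50246900-50246959 on the minus strand, RNA B exceeded RNA A by 569 to 337 on array 1 and by 602 to 372 on array 2. The log2 ratio was -0.72 ± 0.0425 (SD, n = 2 arrays), and the second probe gave -0.60 and -0.61. Both Osbpl3 probes passed the filter.

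Adssl1, Sh3bgr and Sh3bgrl2 have muscle ties or belong to a family with one. Adssl1, the muscle isoform of adenylosuccinate synthetase in the purine nucleotide cycle, was read at chr12:113879491-113879550 on the plus strand, where RNA A gave 151 and RNA B 401 (array 1), and then 189 and 315 (array 2). RNA B was above RNA A on both arrays, but by 2.65-fold on array 1 and 1.67-fold on array 2. The log2 ratios were -1.41 and -0.74, and this difference of 0.67 was the largest among the 10 genes. The spots of this probe ranged from -1.44 to -1.34 on array 1 and from -0.79 to -0.67 on array 2, and so did not overlap between arrays.

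Sh3bgr encodes a small protein with a thioredoxin fold found mainly in striated muscle. At chr16:96450476-96450535 on the plus strand array 1 gave 746 for RNA A and 1120 for RNA B, and array 2 gave 975 and 2172. Sh3bgr differed between arrays in the opposite sense to Adssl1, with log2 ratios of -0.59 and -1.16. The second, nearly identical probe gave -0.56 and -1.17, and its 1.47-fold on array 1 left it just outside the filter.

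Sh3bgrl2, a relative of Sh3bgr, was read by 4 probes on the plus strand, the brightest of them the fourth at chr9:83493811-83493870. That probe gave 996 in RNA A and 1615 in RNA B (array 1) and then 973 and 1500 (array 2), with a log2 ratio of -0.66 ± 0.0520 (SD, n = 2 arrays). In order along the gene, the 4 probes gave -0.26, -0.36, -0.45 and -0.70 on array 1 and -0.64, -0.75, -0.63 and -0.62 on array 2. On array 1 the ratio fell further below 0 towards the last probe, while on array 2 the probes lay close together. The signal in RNA B on array 1 rose along the same order, from 123 to 176, 592 and 1615, and the part of brightness in the order was not tested.

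**Figure D2:**
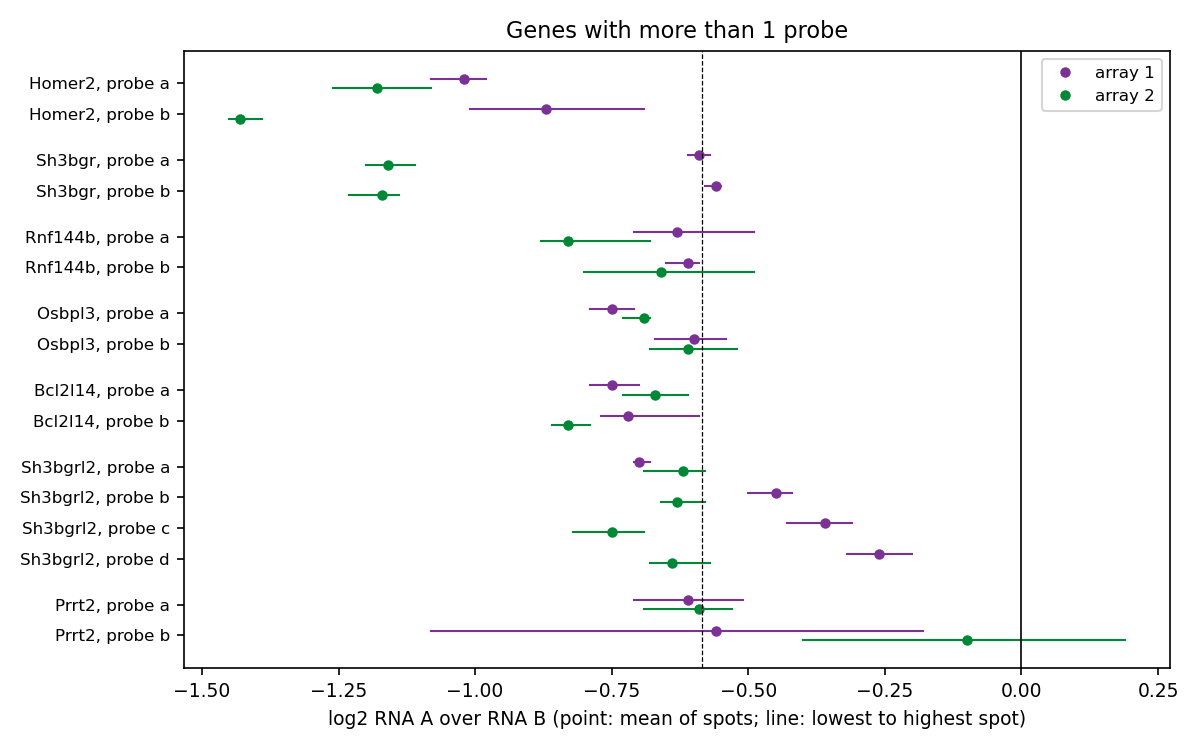
Log2 ratio of RNA A over RNA B for each probe of the genes with more than 1 probe (points, mean of the spots; lines, lowest to highest spot; dashed line, 1.5-fold), with probes lettered from the brightest. Sh3bgr and 3 of the 4 Sh3bgrl2 probes were further below 0 on array 2 (green) than on array 1 (purple), and the dim second probe of Prrt2 had the widest spread.

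Rnf144b, Bcl2l14 and Snx31 act in ubiquitin transfer, cell death and membrane sorting. Rnf144b, a ubiquitin ligase of the RBR type, was read at chr13:47341778-47341837 on the plus strand with RNA A at 81.9 and RNA B at 127 (array 1), then 84.4 and 150 (array 2), the lowest in RNA B among the 10 genes. Its log2 ratio was -0.73 ± 0.138 (SD, n = 2 arrays). The second probe gave -0.61 and -0.66, with a signal in RNA B of 89.6 on array 1, below 100.

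Bcl2l14, a member of the BCL2 family of apoptosis regulators, was read at chr6:134388020-134388079 on the plus strand with RNA A at 900 and RNA B at 1510 (array 1), then 1070 and 1698 (array 2). The log2 ratio was -0.71 ± 0.0573 (SD, n = 2 arrays). Its second probe, at 307 against 505 (array 1) and 316 against 561 (array 2), gave -0.72 and -0.83, and both probes passed the filter.

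Snx31 was read at chr15:36434054-36434113 on the minus strand with RNA A at 231 and RNA B at 314 (array 1), then 237 and 301 (array 2). RNA B was the brighter on both arrays without overlap, by 1.36-fold and 1.27-fold, below 1.5-fold. The log2 ratio was -0.40 ± 0.0701 (SD, n = 2 arrays), and Snx31 ranked 746 of 21429 from the lowest.

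Of the 10 genes, 8 differed by less than 0.2 between the arrays, the exceptions being Adssl1 and Sh3bgr. Since the genes were selected for ratios of the same sign on both arrays, this closeness is a description and no measure of reproducibility. The ratio was further below 0 on array 1 for 7 genes and on array 2 for 3, and the medians were -0.72 and -0.71. Counting single spots, 145 of the 147 kept spots of the 19 probes were brighter in RNA B. Spots are repeats within an array and not replicates, and the selection of the genes largely set their sign.

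**Figure D3:**
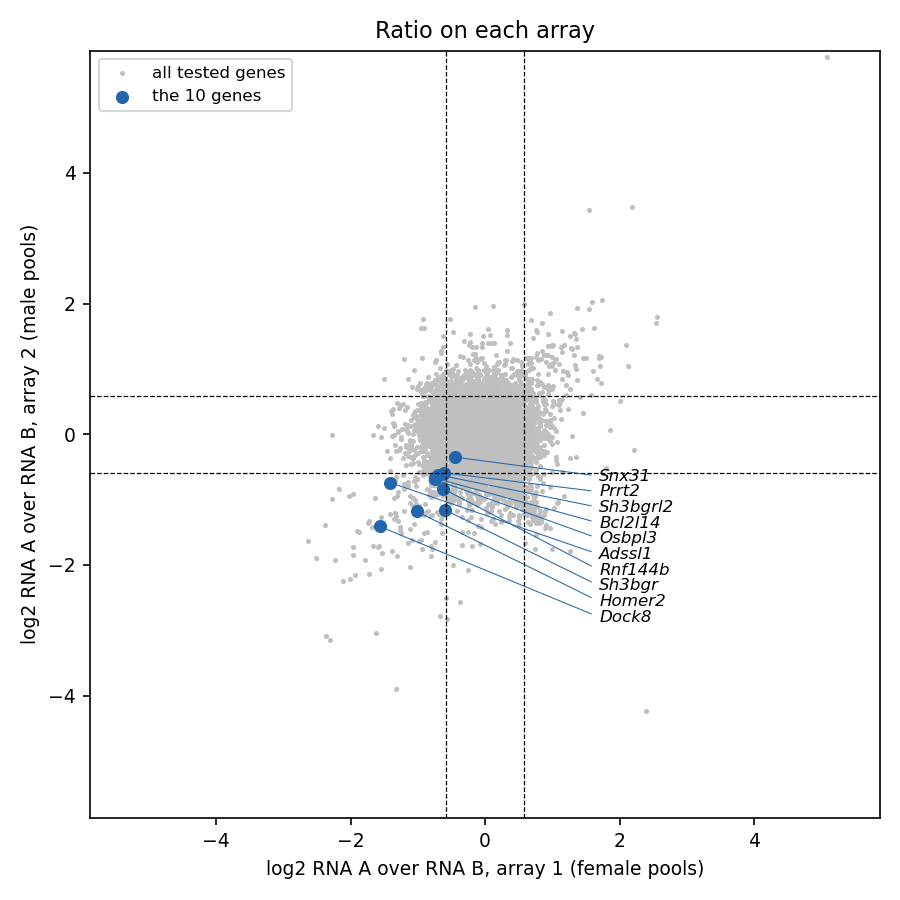
Log2 ratio of RNA A over RNA B on array 1 (x axis) and array 2 (y axis) for 21429 genes (grey) and the 10 genes (blue), with dashed lines at 1.5-fold. The 10 genes lie in the lower left, 9 of them beyond both dashed lines and Snx31 inside both.

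Relatives and binding partners of the 10 genes were listed by family. Of 97 measured relatives, 92 were well above background in an RNA on both arrays, and 0 passed the filter in either direction. With so low a background share, a count of 0 in 92 is no result about the relatives. By limma across all genes, 0.187% were called on the side of RNA B and 0.126% on that of RNA A at an adjusted p under 0.05. Among the relatives limma called 0. At an unadjusted p under 0.05 it marked 1 on the side of RNA A, against 1.68% of all tested genes. On the side of RNA B it marked 0, against 2.10%. The median log2 ratio of the relatives was 0.00026, with a range from -0.42 to 0.66, and 14 of the 92 were negative on both arrays, where 17.4% of all tested genes were.

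The brightest relative of each gene was as follows. In the family of Sh3bgr and Sh3bgrl2, Sh3bgrl3 had 0.17 on both arrays. Dock6, the brightest DOCK gene, had 0.20 on array 1 and -0.76 on array 2, and Cdc42, the GTPase on which Dock8 acts, had -0.15 and 0.13. Adss, the non-muscle counterpart of Adssl1, had 0.24 and 0.0034. Vapa, a partner of Osbpl3, had -0.27 and 0.39. These values lay on both sides of 0.

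Mcl1, the brightest of the BCL2 list, had -0.077 and 0.13, and Rnf14, the brightest RBR ligase, had 0.081 and 0.12. For Homer2 the brightest partner was Itpr1, an inositol trisphosphate receptor, with -0.46 and -0.13. Snap25, a partner of Prrt2, had 0.23 and -0.50. Beside Snx31, Snx17 had -0.18 and 0.26, and Commd1, of the complexes that recycle sorting nexin cargo, had 0.26 and -0.080.

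**Figure D4:**
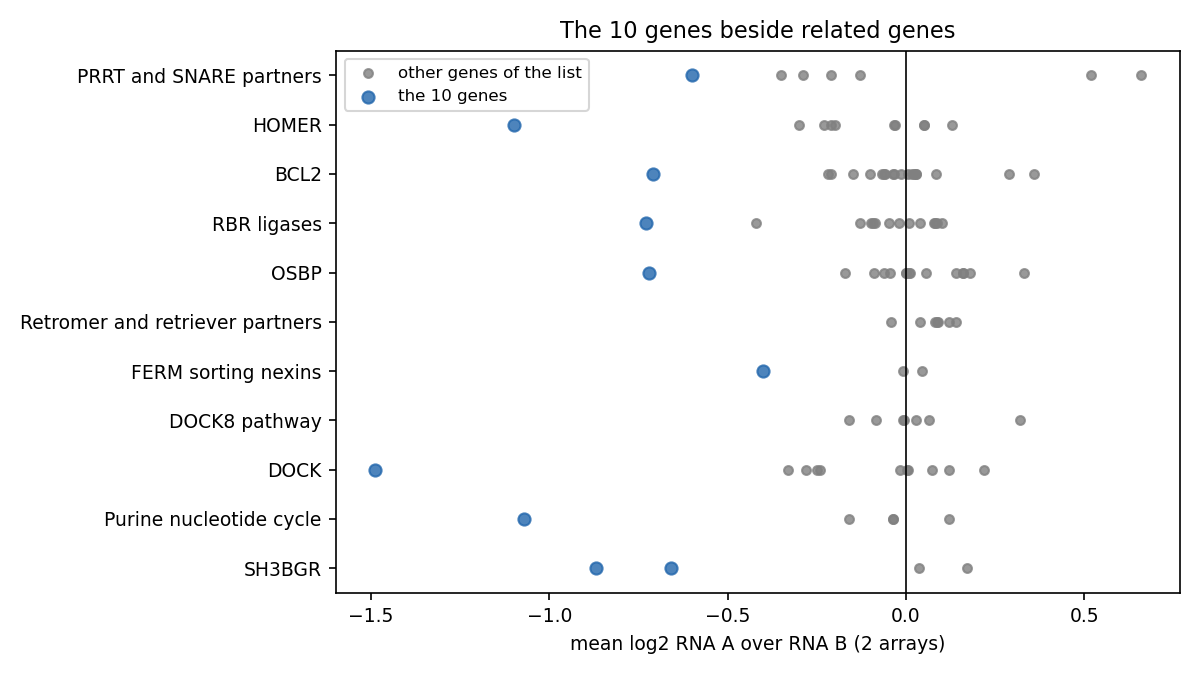
Mean log2 ratio of RNA A over RNA B (x axis, 2 arrays) for the 10 genes (blue) and the measured relatives and partners well above background (grey), by list. The relatives ranged from -0.42 to 0.66, and each of the 10 genes lay below all relatives of its own list. The 10 genes were chosen on their ratios and the relatives were not, so this order is a description.

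Neighbouring genes on the chromosome, the nearest 2 on each side in the RefSeq listing, were read in the same way. Of 40 such genes, 34 were well above background in an RNA on both arrays, 0 passed the filter and limma called 0, also at an unadjusted p under 0.05. Of all genes, 0.230% passed the filter on the side of RNA B and 0.157% on that of RNA A. At an unadjusted limma p under 0.05 the shares of tested genes were 2.10% and 1.68%. With such shares, counts of 0 in 34 are no result about the neighbours. Their median log2 ratio was -0.0010. Lrp6, a WNT coreceptor gene beside Bcl2l14, exceeded 1.5-fold in opposite directions, with -0.67 on array 1 and 1.02 on array 2.

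Promoters were looked up in the RefSeq table (GRCm38.p6), which held 10 promoters of 7 of the 10 genes; Sh3bgr, Snx31 and Prrt2 had no entry. The hexamer AGGTCA, searched on both strands, stood in 1 of the 10, that of Adssl1, and in 16.3% of all 32817 promoters in the table. The 250 bases before the start site of Adssl1, at chr12:112619797-112620046 on the plus strand, are shown because they hold it, with the match in capitals.
Adssl1 promoter: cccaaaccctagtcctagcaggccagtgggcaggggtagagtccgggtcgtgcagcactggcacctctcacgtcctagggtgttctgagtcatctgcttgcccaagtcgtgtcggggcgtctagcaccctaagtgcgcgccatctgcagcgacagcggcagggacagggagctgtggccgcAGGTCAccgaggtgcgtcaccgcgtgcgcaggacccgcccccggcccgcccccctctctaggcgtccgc
The match began 69 bases before the start site. The direct repeat with at most 2 mismatches was found in 0 of the 10 promoters and in 3.86% of all. The AP-1 motif TGANTCA stood in 1 promoter, again that of Adssl1, and in 7.81% of all. The GATA motif AGATAA stood in 1, of Bcl2l14 (11.2% of all), the grainyhead-like motif AACCGGTT with at most 1 mismatch in 1, of Rnf144b (4.58%), and the forkhead motif TGTTTAC in 0 (3.65%). At these shares, counts of 0 or 1 in 10 promoters are no result about the 10 genes, and sequence outside the promoters was not searched. A match is a description of these letters and not of binding.

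Markers of the cell types in the pools were set beside the 10 genes. In bulk RNA, fewer cells of a type and less RNA per cell cannot be told apart. All 6 markers of superficial cells had negative ratios on both arrays, with a median of -1.01, and 4 passed the filter. These were Upk1a (-1.42 and -1.22), Upk3a (-0.64 and -0.77), Upk3b (-1.67 and -1.71) and Krt20 (-1.96 and -0.92). By limma 2 of the 6 were called, and both calls were lost with normexp and loess, with the authors' table and with no filter on dim probes, where limma called 0 genes on this side. Summed over the list, RNA A gave 50739 and RNA B 82481 on array 1, while array 2 gave 49171 and 86415. The 10 genes, which were chosen on their ratios, had the sign of the superficial markers. That sign was shared by 5 of 6 smooth muscle markers. By in situ hybridization the study reports Adssl1, Rnf144b and Sh3bgrl2 as specific to superficial cells in control ureters, and as strongly reduced or absent in mutants. The part of superficial cells in the ratios of the 10 genes was not tested.

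Markers of basal cells had a median of 0.44, with 3 of 4 positive on both arrays, Krt15 being the brightest with 0.55 and 0.34. The general epithelial markers had a median of -0.18, led in signal by Krt8 with -0.60 and -0.19. Their summed signals were 61636 and 89804 on array 1 and 79152 and 84494 on array 2. The ratios of the 10 genes, on which they were chosen, were below both medians on each array. Snx31 at -0.45 on array 1 was close to the epithelial median there of -0.44. On array 1 some epithelial markers, Krt8 among them, lay within the range of the 10 genes. On array 2 the lowest epithelial ratio, -0.30, was above all of the 10 genes.

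Of 6 smooth muscle markers, 5 had negative ratios on both arrays, and the medians were -0.44 on array 1 and -0.78 on array 2. None passed the filter or the adjusted limma threshold, and 5 had an unadjusted p under 0.05 on the side of RNA B, as did 2.10% of all tested genes. Acta2, the brightest, had -0.24 and -0.87, and the summed signals were 77351 and 98500 on array 1 and 73649 and 128874 on array 2. Striated muscle markers, listed for Sh3bgr and Adssl1, had medians of -0.38 on array 1 and -0.016 on array 2. Of these 11, 5 were negative and 2 positive on both arrays. The list holds Ckm, whose protein the study uses as a smooth muscle marker of the ureter, so it does not read striated muscle alone. They summed to 7851 and 8821 on array 1 and to 5627 and 10531 on array 2. Most of the second pair was Acta1, the brightest, with 3668 in RNA A and 8456 in RNA B. The sums and the medians thus ordered the arrays differently. The part of muscle in the ratios of Sh3bgr and Adssl1 was not tested.

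Leukocyte markers, relevant to Dock8, had a median of 0.15, 5 of 7 being positive on both arrays, and summed to 5415 and 4360 on array 1 and 5382 and 4867 on array 2. Csf1r, the brightest, had 0.18 and 0.13. Neuronal markers, relevant to Prrt2 and Homer2, had medians of -0.011 on array 1 and 0.23 on array 2 and summed to 11350 and 10227 on array 1 and 10788 and 12389 on array 2. Of 7 collecting duct and nephron markers, 3 were not well above background, Lrp2 was the brightest with -0.23 and -0.46, and the list summed to between 319 and 466 per channel. Endothelial markers, led by Kdr with -0.073 and 0.14, had a median of 0.080. The study's in situ hybridization placed Dock8 throughout the urothelium, with a strong reduction in mutants. The part of leukocytes and neurons in the ratios of Dock8, Prrt2 and Homer2 was not tested.

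**Figure D5:**
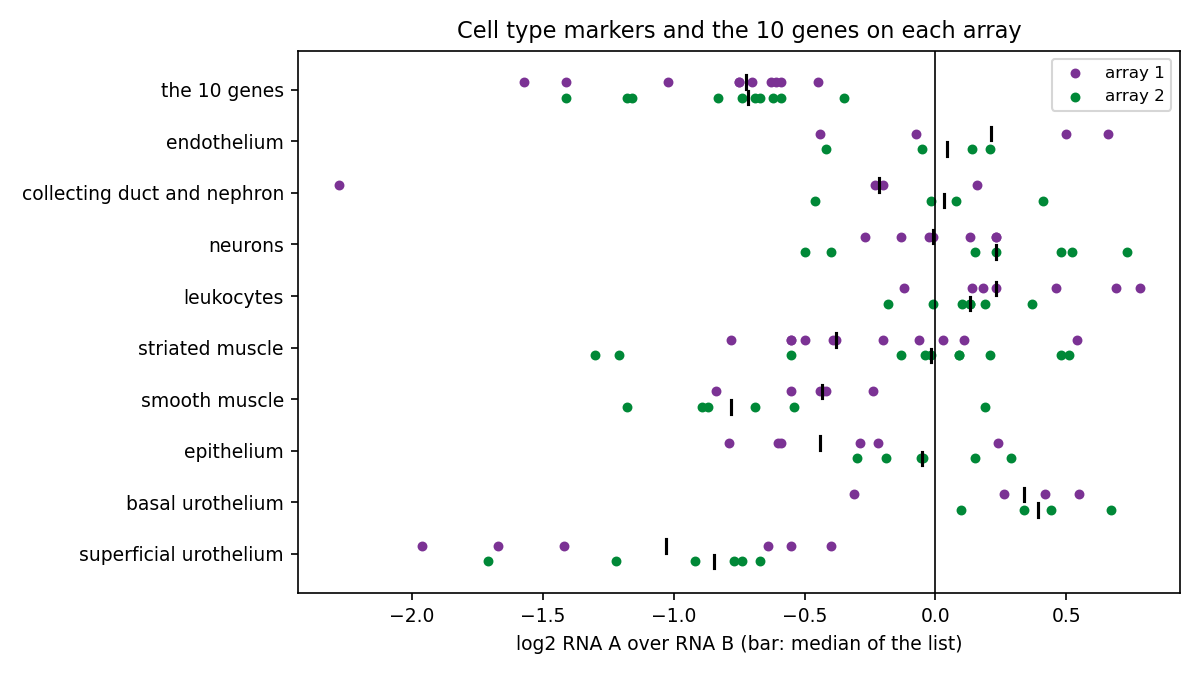
Log2 ratio of RNA A over RNA B for the cell type markers well above background and for the 10 genes on array 1 (purple) and array 2 (green), with bars at the median of each list. The medians of the 10 genes, -0.72 and -0.71, lay nearer to 0 than those of the superficial markers, -1.03 and -0.85. The smooth muscle medians were -0.44 and -0.78, and those of the basal markers were above 0.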

How the data were processed

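Pooled ureters were compared on 2 dual-colour arrays, and samples were grouped by the labels. Per the file headers, Agilent Feature Extraction 10.7.3.1 produced the deposited intensity used here for every spot: background was subtracted, values near it became surrogates (7.98 to 15.2% of spots per channel), and dyes were normalised per array (linear and LOWESS). No value rests on the deposited log10 ratios. A table deposited by the authors gives signed folds (score) per probe. No direction is stated for its values, although the sample titles read Pparg-cKO vs control, which under that reading makes RNA A the mutant. Across probes they followed RNA A over RNA B (Pearson r = 0.996 on array 1 and 0.997 on array 2) and served as an alternative.

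Control spots (17263 per array) and flagged spots (5705 and 5579) were dropped. Each probe's value is the mean log2 processed signal of its remaining spots, with no further centring. Probes were named through RefSeq symbols where these matched (28305 probes), and otherwise kept the name in the file. limma 3.58.1 (R 4.3.3) was fitted to 21429 genes with Benjamini-Hochberg adjustment at 0.05. It was run on simulated data with a smaller spread between arrays than estimated here and no dye effect. That run checks the code and cannot show how limma performs at the spread of these arrays. With 2 arrays it has 1 residual degree of freedom per gene. Replicates are pools, and nothing says how far their spread is biological. Plots were drawn with matplotlib 3.10.9.

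Named were the 10 genes, the brightest gene of each list and any list gene or neighbour past the filter; Lrp6 was named after its values were seen. The members and lists were chosen with earlier results of these data known. Alternatives were other background correction and normalisation, centring, the authors' table, changed rules on probes, spots, signal and fold, no filter on dim probes, and leaving out each array. Protein sequences and exon positions of the probes were not analysed here.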

Additional observations from a re-analysis of the deposited data

Results flagged for a closer look

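Lrp6, a neighbour of Bcl2l14, exceeded 1.5-fold in opposite directions on the arrays, with a log2 ratio of RNA A over RNA B of -0.67 on array 1 (female pools) and 1.02 on array 2 (male pools). No test was run on this difference, and dye and sex cannot be told apart. In all, 129 of 29982 genes were past 1.5-fold in opposite directions.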

How the results depend on the processing

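The median log2 ratio of the 10 genes stayed within the spread between arrays under all 8 alternatives tried for it. Of 80 values of single genes 0 changed sign, but 4 moved by at least the gene's SD between arrays. These were Dock8 (-1.30 with normexp and loess) and, with the mean of all probes, Osbpl3 (-0.66), Prrt2 (-0.47) and Sh3bgrl2 (-0.55). Of the 10 genes, 9 passed the filter, but 2 (Dock8 and Homer2) at 2-fold, 6 with the mean of all probes of a gene (without Sh3bgr, Sh3bgrl2 and Prrt2) and 7 with normexp and loess (without Rnf144b and Prrt2). Prrt2 also failed with the authors' table, Sh3bgr with flagged spots kept and Rnf144b at a signal of at least 200. Genes brighter in RNA A numbered 47, against 28 at a signal of at least 200, 128 when only well above background was asked and 19 at 2-fold. Those brighter in RNA B numbered 69, against 148 when only well above background was asked, 29 at 2-fold and 138 with 1.5-fold in the mean. Without replicate 1 or 2 the counts were 301 to 321 for RNA A and 488 to 637 for RNA B, 4 to 5 for relatives and 2 to 2 for neighbours. With 1.5-fold in the mean, 1 relative (Syt1) passed. limma calls (27 in RNA A, 40 in RNA B) became 1 and 0 with normexp and loess (201 and 325 at an unadjusted p under 0.05), 8 and 20 with loess on the processed signals, 0 and 0 with the authors' deposited table (262 and 305 unadjusted) and 0 and 0 with no filter on dim probes (220 and 274 unadjusted). The cause was not tested. Leaving out an array leaves limma no residual degree of freedom, so no value was given. No paired analysis was possible because there is 1 ratio per array and no second group. The number of arrays limits all values, and dim probes such as the second of Prrt2 have the widest spread over spots.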
